A study of Mus musculus with 16 samples.

Results

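The genes described here are Myh6, Myh7 and Myh7b, which encode the myosin heavy chains of heart and slow muscle, and Sox6 and Med13, which encode regulators of transcription. They were chosen by name, as the hosts of the heart microRNAs miR-208a, miR-208b and miR-499 and as transcripts that these microRNAs can bind, and all 5 were found among the 55573 genes of the count table. The libraries came from ventricular RNA of 16 male mice, with 4 mice to each of 4 groups. All mice carried floxed Trbp alleles (Trbp-flox/flox) together with αMHC-MerCreMer, a tamoxifen-dependent Cre recombinase driven by the cardiomyocyte promoter of Myh6, which is itself 1 of the genes described. Control mice received corn oil and Trbp-cKO mice received tamoxifen at 30 mg/kg once daily for 5 days from 4 weeks of age. Each genotype then underwent sham surgery or transverse aortic constriction (TAC), a ligature around the aorta that loads the left ventricle with pressure, and hearts were collected about 8 weeks after surgery. The controls received no tamoxifen, so in these hearts loss of Trbp, tamoxifen and active Cre cannot be told apart.

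Myosin heavy chain is the motor of the sarcomere, and the ventricle of the adult mouse uses mainly the fast alpha chain (Myh6) and little of the slow beta chain (Myh7). Pressure overload is known to raise beta relative to alpha. Introns of these genes hold microRNAs, short RNAs whose seed pairs with sites in the 3′ untranslated region of target transcripts and lowers their output. MiR-208a, from Myh6, and miR-499, from Myh7b, are known to repress Sox6, a repressor of slow muscle genes, and miR-208a is known to repress Med13, a subunit of the Mediator kinase module that acts on thyroid hormone responses of the heart. Trbp, encoded by Tarbp2, is a partner of Dicer, the enzyme that cuts microRNA precursors, which is why these genes are of interest in a Trbp deletion.

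The sequences that tie the genes together are the mature microRNAs and the sites that their seeds match. RefSeq (GRCm38.p6) gave the following mature strands, with the seed, bases 2 to 8, in capitals.
mmu-miR-208a-3p: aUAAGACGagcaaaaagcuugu
mmu-miR-208b-3p: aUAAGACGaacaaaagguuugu
mmu-miR-499-5p: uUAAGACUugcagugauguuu
The seeds of miR-208a and miR-208b are identical, and that of miR-499 differs from them in its last base. The miR-208a hairpin lies at chr14:54949060-54949142 on the minus strand, in intron 29 of a Myh6 transcript of 39 exons. The miR-208b hairpin lies at chr14:54975700-54975776 on the minus strand, in intron 31 of Myh7. The miR-499 hairpin lies at chr2:155622880-155622958 on the plus strand, in intron 19 of a Myh7b transcript of 42 exons. Each hairpin has the strand of its host.

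Matches to bases 2 to 8 of the microRNAs were read from the longest 3′ untranslated region of each gene in GENCODE M21 (GRCm38). Sox6 held 3 matches to miR-499 (AGTCTTA) and 1 to miR-208 (CGTCTTA) in a region of 6046 bases, and Med13 held 1 match to miR-208 in 3953 bases. The sites are printed 5′ to 3′ on the strand of the transcript, with the match in capitals and with the position in the untranslated region at which it begins.
Sox6, miR-208, position 276: atctctgcccatcgcCGTCTTAt
Sox6, miR-499, position 285: catcgccgtcttatgAGTCTTAc
Sox6, miR-499, position 598: cttaactattttaaaAGTCTTAc
Sox6, miR-499, position 620: caggagacactgcaaAGTCTTAg
Med13, miR-208, position 547: taaaatatatgtaatCGTCTTAa
The first 2 Sox6 sites are neighbours, at chr7:115476636-115476642 and chr7:115476627-115476633, and their printed stretches overlap. The Med13 site, at chr11:86270433-86270439, is followed by an A and is an 8mer. Of 21130 genes with an annotated 3′ untranslated region, 9.73% held AGTCTTA and 1.63% held CGTCTTA at least once. Neither motif was found in the short 3′ untranslated regions of Myh6, Myh7 and Myh7b (60, 109 and 216 bases). These matches describe sequence only, since binding was not measured.

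**Figure D1:**
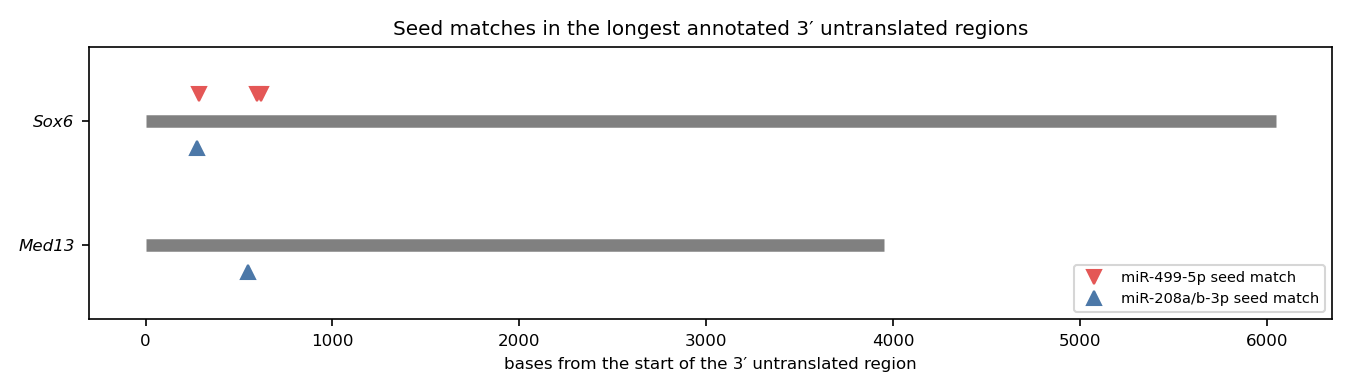
Positions of seed matches along the longest annotated 3′ untranslated region of Sox6 and Med13 (grey bars; x axis, bases from the start of the region). Red triangles mark matches to miR-499-5p and blue triangles matches to miR-208a and miR-208b; the 4 Sox6 matches all begin within the first 620 of 6046 bases.

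The libraries held 45166994 to 68274222 counts, and the targeted gene followed its labels. Tarbp2 was at 30.6 to 33.3 CPM (reads assigned to the gene after scaling libraries to equal size) in control sham and 21.1 to 31.1 in control TAC hearts, and at 8.39 to 11.4 in Trbp-cKO sham and 7.14 to 9.74 in Trbp-cKO TAC hearts. It fell to 0.296-fold of control after sham surgery and to 0.320-fold under TAC (edgeR quasi-likelihood test, adjusted p = 2.38e-05 and 1.17e-05). All 12 cardiomyocyte marker genes were detected, with a summed level of 33171 to 36435 CPM in control sham hearts. Control TAC replicates 1 and 2 stood apart: mitochondrial transcripts took 38.2% and 38.8% of their counts, against 18.2% to 38.8% over all hearts and 25.2% and 21.7% in the other control TAC hearts, and the lowest summed cardiomyocyte level, 14234 CPM, was in the control TAC group. In tissue RNA, fewer cells of a type and less RNA per cell cannot be told apart.

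Of the 5 genes, Myh7b was called in both comparisons of Trbp-cKO with control, Sox6 in the one under TAC, and none of the others in any comparison. A gene that was not called is not thereby shown to be unchanged. Sox6 after sham surgery was at 1.95-fold of control (edgeR quasi-likelihood test, adjusted p = 0.168). Its interaction of deletion and TAC did not pass either (adjusted p = 0.682), so the Sox6 call is not shown to be particular to TAC. A gene was called when its Benjamini-Hochberg adjusted p over the 19955 genes tested was at most 0.05 and its log2 fold change at least 0.8 in size. By this rule 1 of the 5 was called between the genotypes after sham surgery (the sham comparison), where 0.967% of all genes were. Between the genotypes after TAC (the TAC comparison) 2 of the 5 were called, beside 2.46% of all genes. Myh7b was also called for TAC within the Trbp-cKO genotype, beside 5.57% of all genes. No member was called in control TAC against control sham (3.75% of all genes) or in the interaction of deletion and TAC (0.872%). Comparisons that share a group are not independent of each other.

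**Figure D2:**
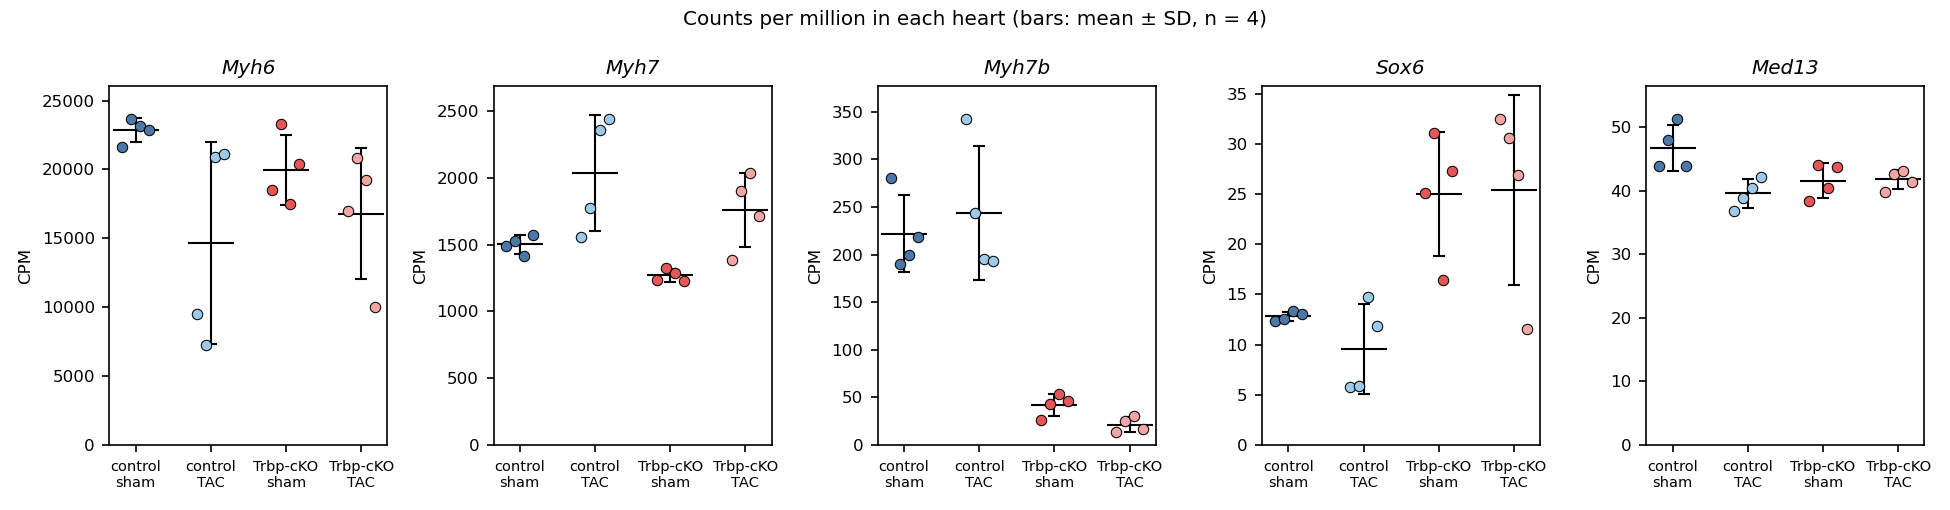
CPM of each gene in each of the 16 hearts (points; replicates 1 to 4 from left to right within a group), with the mean and SD of 4 hearts as bars. Myh7b was at 13.9 to 53.9 CPM in the 8 Trbp-cKO hearts and at 190 to 343 CPM in the 8 control hearts.

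**Figure D3:**
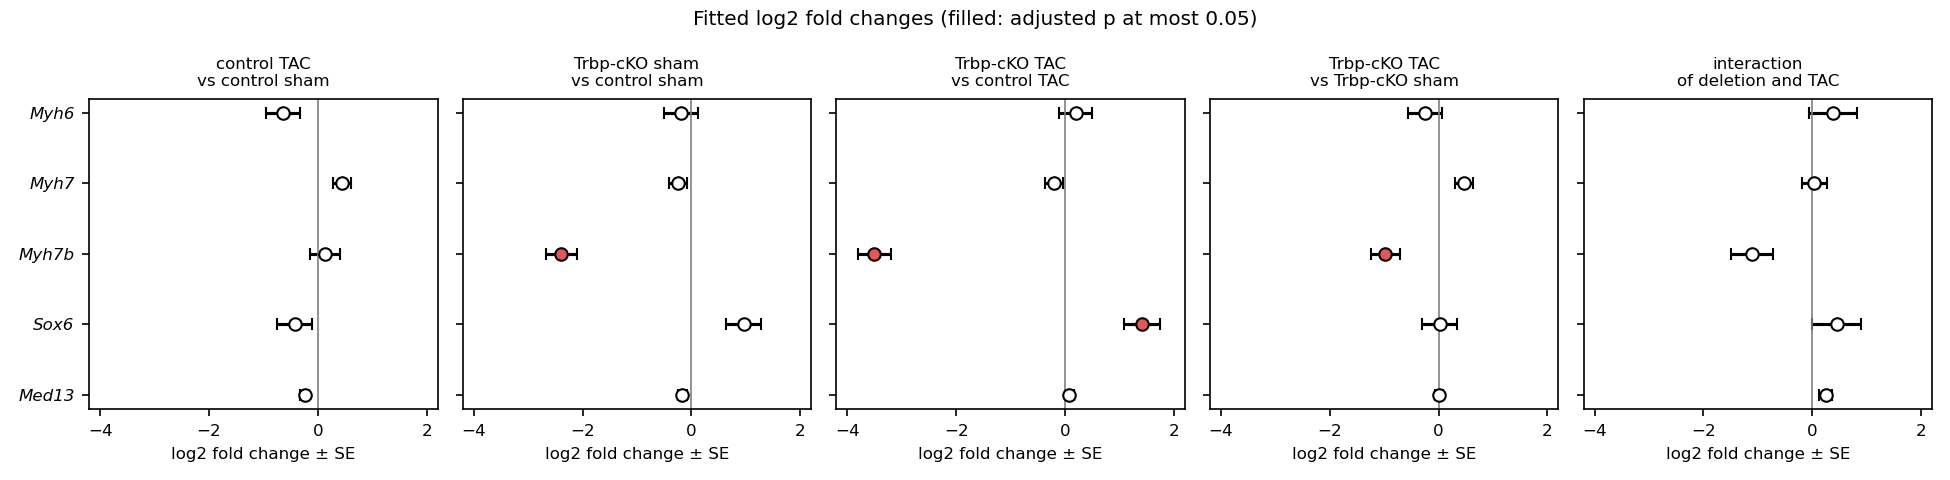
Fitted log2 fold changes with their standard errors in the 4 pairwise comparisons and the interaction, 1 panel each; filled points have an adjusted p of at most 0.05. The filled points are Myh7b in 3 panels and Sox6 in the TAC comparison.

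Myh7b (ENSMUSG00000074652, chr2:155611212-155634307, plus strand), which encodes a slow-type myosin heavy chain and hosts miR-499, had the largest difference of the 5. Control sham hearts held 280, 190, 200 and 218 CPM, and control TAC hearts 343, 244, 195 and 193. Trbp-cKO sham hearts held 25.9, 43.5, 53.9 and 45.9 CPM, and Trbp-cKO TAC hearts 13.9, 24.7, 30.8 and 16.5. Every Trbp-cKO heart lay below every control heart, and the lowest control heart was above 3 times the highest Trbp-cKO heart.

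After sham surgery Myh7b fell by 2.39 ± 0.28 (SE) on the log2 scale, to 0.190-fold of control (edgeR quasi-likelihood test, adjusted p = 0.00087), and ranked 9 by p among the genes tested. Under TAC it fell by 3.50 ± 0.30, to 0.0881-fold (adjusted p = 1.51e-05), and ranked 6. The groups did not overlap in either comparison, and an exact two-sided permutation test over the 70 assignments of 8 hearts gave p = 0.0286, the smallest it allows, in each. Of all genes, 6.96% were lower with no overlap in the sham comparison and 3.93% in the TAC comparison. Without control TAC replicates 1 and 2 the difference under TAC was −3.19 (adjusted p = 8.42e-05).

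The sham comparison carried another difference between the same groups. A score of circadian clock genes, the mean z score of 5 genes of the positive arm minus that of 9 genes of the negative arm, ran from 1.01 to 2.41 in control sham and from −1.92 to −1.76 in Trbp-cKO sham hearts. With this score as a term in the fit no gene was called in that comparison (1108 genes at an unadjusted p under 0.05, against 2733 without the score), and Myh7b had a log2 fold change of −1.96 with an adjusted p of 0.888. The deleted gene Tarbp2 was not called in this fit either, at −1.50 (adjusted p = 0.636). Since the score did not overlap between the sham groups, this fit cannot separate it from deletion. Under TAC the score ran from −0.24 to −0.04 in control and from −0.87 to 1.93 in Trbp-cKO hearts. There Myh7b kept −3.58 with an adjusted p of 6.01e-05.

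TAC itself left Myh7b at a log2 fold change of 0.13 ± 0.27 in control hearts (adjusted p = 0.776), and at −0.19 without replicates 1 and 2 of control TAC. In Trbp-cKO hearts it fell by 0.98 ± 0.27 with TAC (adjusted p = 0.0336), although the highest Trbp-cKO TAC heart, at 30.8 CPM, was above the lowest Trbp-cKO sham heart, at 25.9 (exact permutation p = 0.0571). That call was lost in 9 of 20 alternatives. These were the fits without Trbp-cKO sham replicate 2, 3 or 4 or without Trbp-cKO TAC replicate 1 or 4, where the adjusted p was 0.0747, 0.0943, 0.0823, 0.101 and 0.0890, and those with marker scaling (0.245), the clock score (0.236), the replicate block (0.0700) and 2 groups only (0.0589). The log2 fold change stayed between −1.27 and −0.82. The interaction was −1.11 ± 0.38 with an adjusted p of 0.179, so a larger loss of Myh7b under TAC than after sham surgery did not pass the test. Its fold change there was negative in 27 of 27 processing alternatives.

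Sox6 (ENSMUSG00000051910, chr7:115470872-116038796, minus strand), a transcription factor of the SoxD group, was higher in most Trbp-cKO hearts. Control sham hearts lay close together at 12.4, 12.6, 13.4 and 13.1 CPM. Control TAC hearts fell into pairs, at 5.75 and 5.92 CPM in replicates 1 and 2 and at 14.7 and 11.9 in replicates 3 and 4. Trbp-cKO sham hearts held 25.1, 31.0, 16.5 and 27.3 CPM, each above every control sham heart. Trbp-cKO TAC hearts held 32.5, 30.6, 26.9 and 11.6 CPM, and replicate 4 was below the higher pair of control TAC hearts.

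Under TAC Sox6 rose by 1.41 ± 0.33 on the log2 scale, to 2.65-fold of control (edgeR quasi-likelihood test, adjusted p = 0.0226). The exact permutation test, which uses CPM and the 8 hearts alone, gave p = 0.0857. The call was lost without control TAC replicate 1 or 2 (adjusted p = 0.0766 and 0.0649) and without Trbp-cKO TAC replicate 1, 2 or 3 (0.0689, 0.0567 and 0.0523), and also with the replicate block (0.0729) and with 2 groups only (0.182). Without both control TAC replicates 1 and 2 the log2 fold change was 0.92 (adjusted p = 0.148), and without these and Trbp-cKO TAC replicate 4 it was 1.17 (adjusted p = 0.00475). Both sets of left-out hearts were chosen after seeing the data. Replicate 4 was the lowest Trbp-cKO TAC heart for Sox6, so leaving it out favours a difference and the last p-value lends the call no support. The sign was the same in all 21 alternatives, with values from 0.92 to 1.69.

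**Figure D4:**
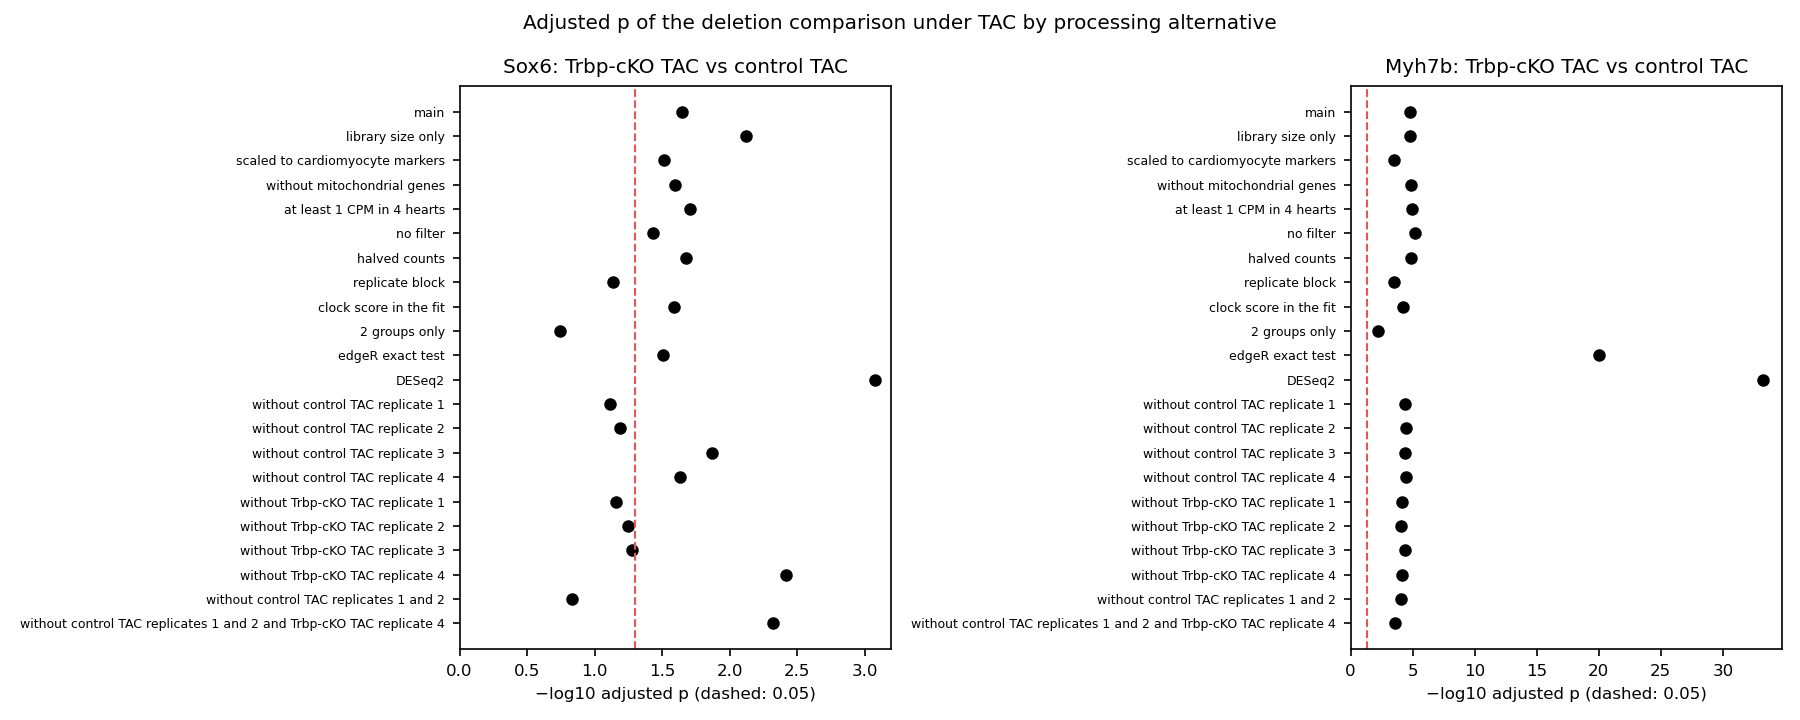
The −log10 of the adjusted p in the TAC comparison under each processing alternative (points; 1 row each), for Sox6 on the left and Myh7b on the right; the dashed line marks 0.05 and the x axes differ. Sox6 lay on the lower side of the line in 8 of 21 alternatives and Myh7b in none of 21.

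After sham surgery Sox6 stood at a log2 fold change of 0.96 ± 0.32, or 1.95-fold of control, with an adjusted p of 0.168. The 4 Trbp-cKO hearts all exceeded the 4 controls (exact permutation p = 0.0286), as they did for 7.74% of all genes. A fit of these 2 groups alone gave an adjusted p of 0.00937 and edgeR's exact test one of 1.15e-05; both estimate the spread without the TAC hearts. With the clock score as a term the log2 fold change was 0.31 (adjusted p = 0.947). The score did not overlap between the sham groups, and the deleted gene Tarbp2 was not called in that fit either (adjusted p = 0.636). That fit therefore cannot separate the score from deletion for Sox6. TAC left Sox6 at −0.42 ± 0.32 in control hearts (adjusted p = 0.406) and at 0.02 ± 0.32 in Trbp-cKO hearts (adjusted p = 0.980). The control value was 0.05 without replicates 1 and 2 of control TAC. The interaction was 0.45 ± 0.46 (adjusted p = 0.682).

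Myh6 (ENSMUSG00000040752, chr14:54941921-54966927, minus strand), the alpha chain and host of miR-208a, was the most abundant of the 5 per length. Control sham hearts held 21632, 23689, 23168 and 22834 CPM. Control TAC hearts held 9516 and 7226 CPM in replicates 1 and 2, against 20876 and 21102 in replicates 3 and 4. Trbp-cKO sham hearts held 18523, 23331, 17528 and 20372 CPM, and Trbp-cKO TAC hearts 16972, 20816, 19258 and 10053. The 3 hearts with the least Myh6 were also the 3 with the least Sox6, and all had undergone TAC.

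No comparison of Myh6 passed the test. With TAC its log2 fold change was −0.64 ± 0.31 in control hearts (adjusted p = 0.204), and every control TAC heart was below every control sham heart (exact permutation p = 0.0286), as for 8.78% of all genes. That value was −0.12 without control TAC replicates 1 and 2. Deletion gave −0.20 ± 0.31 after sham surgery (adjusted p = 0.867) and 0.19 ± 0.31 under TAC (adjusted p = 0.765), the latter turning to −0.33 without those replicates. In Trbp-cKO hearts TAC gave −0.25 ± 0.31 (adjusted p = 0.714), and the interaction was 0.39 ± 0.44 (adjusted p = 0.714).

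Myh7 (ENSMUSG00000053093, chr14:54970684-54994626, minus strand), the beta chain and host of miR-208b, was higher in most TAC hearts of either genotype. Control sham hearts held 1492, 1528, 1413 and 1574 CPM and control TAC hearts 1561, 1776, 2359 and 2444, so that 1 TAC heart lay within the sham range. Trbp-cKO sham hearts held 1238, 1325, 1291 and 1225 CPM, all below the control sham hearts, as for 6.96% of all genes. Trbp-cKO TAC hearts held 1389, 1904, 2033 and 1716 CPM, all above the Trbp-cKO sham hearts.

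The log2 fold change of Myh7 with TAC was 0.44 ± 0.16 in control hearts (adjusted p = 0.112; exact permutation p = 0.0571) and 0.47 ± 0.16 in Trbp-cKO hearts (adjusted p = 0.0840; exact permutation p = 0.0286). In the latter every TAC heart was above every sham heart, as for 9.05% of all genes. Neither passed the threshold, but DESeq2 gave adjusted p values of 0.0449 and 0.0178. Without control TAC replicates 1 and 2 the value in controls was 0.68 (adjusted p = 0.0469). Deletion gave −0.24 ± 0.16 after sham surgery (adjusted p = 0.583; exact permutation p = 0.0286) and −0.21 ± 0.16 under TAC (adjusted p = 0.487). The latter was −0.46 without control TAC replicates 1 and 2 (adjusted p = 0.0946). The interaction was 0.03 ± 0.23 (adjusted p = 0.963).

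The balance of the ventricular chains was taken within each heart, as the share of Myh7 in the CPM per kb of Myh6 and Myh7, which does not depend on the scaling between libraries. It was 5.11%, 4.79%, 4.55% and 5.11% in control sham hearts and 11.3%, 16.1%, 8.11% and 8.29% in control TAC hearts. In Trbp-cKO sham hearts it was 4.96%, 4.25%, 5.44% and 4.48%, and in Trbp-cKO TAC hearts 6.01%, 6.66%, 7.61% and 11.8%. Every TAC heart was above every sham heart of its genotype.

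The mean share was 4.89% ± 0.273 (SD, n = 4) in control sham and 10.96% ± 3.73 in control TAC hearts. An exact two-sided permutation test gave p = 0.0286 (0.0572 adjusted over the 4 comparisons). In Trbp-cKO hearts it was 4.78% ± 0.528 after sham surgery and 8.01% ± 2.59 after TAC, with the same exact p values, which are the smallest that 4 against 4 hearts allow. Trbp-cKO and control shares overlapped after sham surgery and under TAC (exact permutation p = 0.771 and 0.2). The hearts with the highest share were the 3 with the least Myh6. Among 7 atrial markers Nppa, a natriuretic peptide gene that loaded ventricles are also known to express, had a mean of 732 CPM in control sham and 2919 in control TAC hearts, and of 1266 and 12407 in the Trbp-cKO groups. Nppa made up nearly all of the summed level. Of the 5 that were tested, Nppa, Dkk3 and the atrial light chain gene Myl4 rose in the TAC comparison (3.88% of all genes were higher). The same 3 rose with TAC in Trbp-cKO hearts (6.02%), and Nppa and Dkk3 with TAC in control hearts (6.29% passed in either direction). Nr2f2, also tested, had a mean of 19.7 CPM in control TAC and 14.9 in Trbp-cKO TAC hearts. Dkk3 had a mean of 22.5 CPM in control TAC and 56.1 in Trbp-cKO TAC hearts and Myl4 of 1.53 and 5.69, while Sln, Bmp10 and Myl7 were at no more than 0.390 CPM in the mean of any group. The control sum was 567 to 1038 CPM after sham surgery and 1644 to 3910 after TAC, the Trbp-cKO sum 1034 to 1548 and 10303 to 15791, and the part of this in the myosin values was not tested. Without control TAC replicates 1 and 2 the mean difference of TAC from sham in controls was 3.31 percentage points, against 6.07 with them, and that of Trbp-cKO from control under TAC was −0.189 points, against −2.95. Without Trbp-cKO TAC replicate 4 the difference of TAC from sham in Trbp-cKO hearts was 1.98 points, against 3.23 with it.

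**Figure D5:**
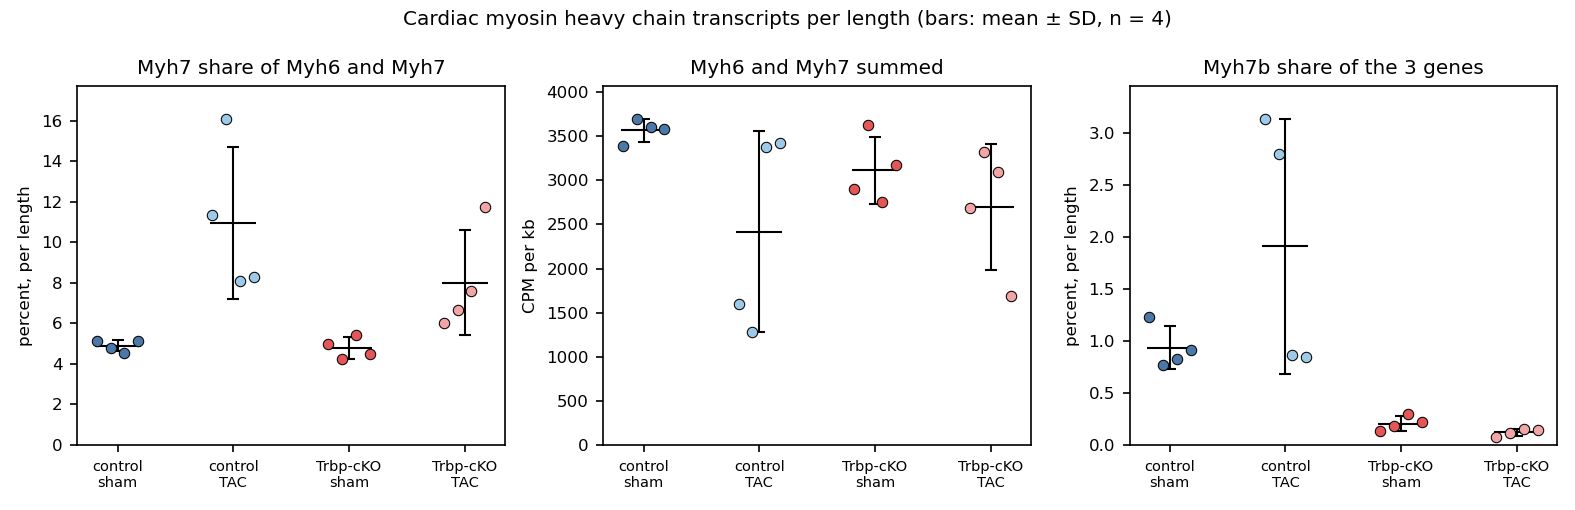
Myosin heavy chain transcripts per length in each heart (points; bars, mean and SD of 4 hearts): the Myh7 share of Myh6 and Myh7 in percent (left), the sum of Myh6 and Myh7 in CPM per kb (middle) and the Myh7b share of the 3 genes in percent (right). The Myh7 share was at most 5.44% in sham hearts and at least 6.01% in TAC hearts.

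Per length, Myh7b was the least abundant of the 3 chains. In control sham hearts Myh6 stood at 3394 ± 130 CPM per kb (SD, n = 4), Myh7 at 174 ± 7.90 and Myh7b at 33.5 ± 6.11. Med13, at 4.32 ± 0.335, and Sox6, at 0.865 ± 0.0310, were below the myosins, and no 2 neighbours in this order overlapped in these hearts. The order of the group means was the same in control TAC and Trbp-cKO sham hearts, while in Trbp-cKO TAC hearts Myh7b, at 3.24 CPM per kb, was below Med13, at 3.86. Of the 3 chains, Myh7b made up 0.934% ± 0.206 in control hearts after sham surgery and 1.91% ± 1.23 after TAC. The latter mean rests on replicates 1 and 2, at 3.14% and 2.79%, since replicates 3 and 4, at 0.864% and 0.844%, lay within the sham range. The Trbp-cKO shares were 0.207% ± 0.0674 and 0.122% ± 0.0336. Both deletion comparisons of this share were free of overlap (exact permutation p = 0.0286, 0.0572 adjusted over 4). The sum of Myh6 and Myh7 was 3569 ± 130 CPM per kb in control sham and 2419 ± 1140 in control TAC hearts, and no comparison of the sum passed (exact permutation p from 0.0571 to 0.771).

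Myh6 and Myh7 share sequence, and reads from a shared stretch may be counted to either gene. Of the 75-base windows in their exons, 13.7% of those of Myh6 and 13.6% of those of Myh7 recurred in another gene, chiefly the other chain; at 150 bases, the length of the reads, 4.78% and 4.35% did. Sox6 and Myh7b had no shared window. Exons of Myh7 overlap antisense Mhrt by 484 bases and Gm31251 by 523, and exons of Med13 overlap antisense Brip1os by 800. Shorter overlaps were those of Myh7 with antisense Gm29015 (142 bases), Myh6 with antisense Gm49130 (114) and Myh7b with Trpc4ap on the other strand (37). The sources used here do not say whether counting used strand, so reads from these overlaps cannot be assigned.

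Med13 (ENSMUSG00000034297, chr11:86267033-86357602, minus strand) varied the least. Control sham hearts held 43.8, 48.1, 51.4 and 43.9 CPM, and control TAC hearts 36.9, 38.9, 40.5 and 42.1, all below them, as for 8.78% of all genes. Trbp-cKO sham hearts held 38.3, 44.0, 40.4 and 43.7 CPM, and Trbp-cKO TAC hearts 39.9, 42.7, 43.1 and 41.5. No comparison passed in the edgeR fit. The log2 fold change with TAC in controls was −0.24 ± 0.08 (adjusted p = 0.0842; 0.0158 by DESeq2; exact permutation p = 0.0286), and −0.18 without replicates 1 and 2 of control TAC (adjusted p = 0.568). Deletion gave −0.17 ± 0.08 after sham surgery (adjusted p = 0.377) and 0.08 ± 0.08 under TAC (adjusted p = 0.617), the latter 0.00480 without those replicates. In Trbp-cKO hearts TAC gave 0.01 ± 0.08 (adjusted p = 0.980), and the interaction was 0.25 ± 0.12 (adjusted p = 0.319). Sox6 and Med13 both hold seed matches to miR-208, and the difference between their fold changes was not tested.

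Other transcripts known as targets of miR-208 or miR-499 were counted from a fixed list of 7, of which 5 held a seed match. In the sham comparison 1 of 7 was higher at an adjusted p of at most 0.05 (1.02% of all genes) and none lower. This was Pdcd4, a translation inhibitor with a miR-499 match, at 12.4 to 15.4 CPM in control and 20.9 to 26.5 in Trbp-cKO hearts. It rose by 0.77 on the log2 scale (adjusted p = 0.0030) and passed in 17 of 19 alternatives. Its value of 0.09 in the TAC comparison did not pass (adjusted p = 0.672). It fell by 0.40 with TAC in Trbp-cKO hearts (adjusted p = 0.0309, passing in 8 of 20 alternatives), and its interaction was −0.68 (adjusted p = 0.0478, passing in 8 of 27). Under TAC 1 of 7 was higher (3.88% of all genes), Purb, a nucleic acid binding repressor of Myh7 with a miR-499 8mer. Its log2 fold change was 0.34 (adjusted p = 0.0454), which passed in 6 of 21 alternatives. It was 0.48 without control TAC replicates 1 and 2 (adjusted p = 0.00939). Purb also rose by 0.33 with TAC in Trbp-cKO hearts, passing in 6 of 20 alternatives, where 6.02% of all genes were higher. Mstn, Sp3, Cbx1, Ppp3ca and Ppp3cb passed in neither comparison. The SoxD genes Sox5 and Sox13 passed in no comparison, and of 6 other genes of the Mediator kinase module 1 did, Med13l, which rose by 0.35 with TAC in the Trbp-cKO genotype (adjusted p = 0.0463, passing in 6 of 20 alternatives), where 6.02% of all genes were higher.

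Rows for the microRNA genes were in the table, but these libraries were selected for polyadenylated RNA and do not measure mature microRNAs. Mir208a was at 0.190 to 0.709 CPM over all hearts and passed in no comparison, and Mir499 had at most 2 counts in a heart. The Mir208b row, which lies in an intron of Myh7, was at 6.18 to 7.82 CPM in control hearts after sham surgery and 2.11 to 5.00 after TAC, and at 3.70 to 6.27 and 1.35 to 2.13 in Trbp-cKO hearts. It fell with TAC by 0.89 in control (adjusted p = 0.035, passing in 9 of 21 alternatives) and by 1.44 in Trbp-cKO hearts (adjusted p = 0.0012, passing in 19 of 20), and by 1.06 in the TAC comparison (adjusted p = 0.0190). The control value was −0.73 (adjusted p = 0.195) and that of the TAC comparison −1.23 (adjusted p = 0.00658) when control TAC replicates 1 and 2 were left out. Its host Myh7 had log2 fold changes above 0 with TAC.

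Mhrt, a long noncoding RNA antisense to Myh7, was lower after TAC in both genotypes. It was at 121 to 153 CPM in control sham and 56.8 to 95.1 in control TAC hearts, and at 97.8 to 150 in Trbp-cKO sham and 44.6 to 61.8 in Trbp-cKO TAC hearts. No TAC heart reached the sham range of its genotype, as for 8.78% of all genes in control and 8.14% in Trbp-cKO hearts. It fell by 0.90 (adjusted p = 0.0112) and by 1.24 (adjusted p = 0.000437). The control value was −1.02 without control TAC replicates 1 and 2 (adjusted p = 0.0394). Scaling to cardiomyocyte markers gave −0.21 in control (adjusted p = 0.584) and −1.21 in Trbp-cKO hearts (adjusted p = 0.0507), and the clock score −0.96 (adjusted p = 0.126) and −1.16 (adjusted p = 0.0788). All other alternatives passed, and the Trbp-cKO value stayed between −1.34 and −1.14. Of 32 tested genes within 100 kb of a member, 3 passed in control TAC against sham (6.29% of all genes), none in the sham comparison (1.68%), 6 under TAC (5.53%) and 6 with TAC in Trbp-cKO hearts (9.94%), where Plekha7, a junction protein gene, was higher at 1.58 (adjusted p = 0.0108). Those that passed under TAC included Gm31251, also antisense to Myh7, at −0.90 (adjusted p = 0.030), and Bcl2l2, an anti-apoptotic gene near Myh6, at 0.95 (adjusted p = 0.00118). The former passed in 13 of 21 alternatives and the latter in 19. When control TAC replicates 1 and 2 were left out, Gss (adjusted p = 0.0977) and 1110004F10Rik (0.275) did not pass under TAC and the other 4 did, and of the 3 in control TAC against sham Mhrt did.

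Slow-twitch and fast-twitch genes were counted beside the myosins, since Sox6 is known to act on slow muscle genes. Of 8 slow-twitch genes, 3 were lower in the sham comparison (0.666% of all genes) and the same 3 in the TAC comparison (1.65%), with none higher. They were Tnnc1, slow and cardiac troponin C, Myl3, the essential light chain, and Tnnt1, slow troponin T. Tnnc1 went from 1787 to 1862 CPM in control sham to 497 to 596 in Trbp-cKO sham hearts (log2 fold change −1.74, adjusted p = 8.8e-05), and it fell by 1.16 under TAC. Myl3 fell by 1.47 and 1.95 and Tnnt1 by 1.03 and 1.05 in these comparisons. With any 1 of the hearts compared left out, Myl3 (adjusted p = 0.0623 to 0.0933) and Tnnt1 (0.0509 to 0.102) did not pass in the sham comparison, and Tnnc1 was the one of the 3 that still did. The log2 fold change in these fits was −1.51 to −1.44 for Myl3 and −1.10 to −0.90 for Tnnt1. In the TAC comparison Tnnc1 and Myl3 passed in 20 of 21 alternatives and Tnnt1 in 19. The median over the 8 genes was −0.41 and −0.16, against 0.01 and −0.01 over all genes.

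Of 11 tested fast-twitch genes, 3 were higher in the sham comparison (1.02% of all genes) and 4 under TAC (3.88%), with none lower. Tpm2, a tropomyosin of skeletal and smooth muscle, rose by 0.96 and 1.40, and Myl9, a regulatory light chain known from smooth muscle, rose by 1.61 and 2.71. Tnni2, fast troponin I, rose by 1.53 and 1.08 but was at most 2.86 CPM in any heart. The fourth under TAC was Tnnt3, fast troponin T, at 1.32. Under TAC Tnni2 and Tnnt3 each passed in 9 of 21 alternatives, and not without control TAC replicates 1 and 2, while Tpm2 passed in 19 and Myl9 in 21. In the sham comparison Tpm2 passed in 10 of 19, Myl9 in 17 and Tnni2 in 18. Tnnc1, Myl3, Tpm2, Myl9 and Tnni2 were named in the study of these hearts, so their counts are not independent evidence of a direction. The same holds for Myh7b and Sox6, which the study reported as lower and higher in Trbp-cKO hearts by quantitative PCR. Of 6 smooth muscle and pericyte markers 1 was higher in the sham comparison, beside 1.02% of all genes. This was Acta2, smooth muscle actin, with a mean of 220 CPM in control and 498.6 in Trbp-cKO hearts. Of the 6, 5 had a log2 fold change above 0 there, and the median was 0.25. Under TAC Acta2 (91.2 and 466 CPM) and Cnn1 (2.04 and 3.79) were higher, beside 3.88% of all genes. Of the 6, 3 had a log2 fold change above 0 in the TAC comparison, and the median was 0.22. The summed level of the 6 was 817 to 990 CPM in control sham and 1072 to 1320 in Trbp-cKO sham hearts, against 729 to 1008 and 856 to 1338 after TAC, and their part in the Tpm2 and Myl9 results was not tested. The adult and fetal fast myosin heavy chains Myh1, Myh2, Myh3, Myh4 and Myh13 did not pass the filter on low counts, and Myh8 and Myh15 passed in no comparison.

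For each gene, the 3 genes most like it over the 16 hearts were found by the correlation of log2 CPM among 13077 genes, as a description that shares libraries and groups. Sox6 was most like Slc35a4 (Pearson r = 0.97, Spearman rho = 0.92), Gsg1l and Ak4, and r for Slc35a4 was 0.94 after group means were removed. Myh6 was most like Pygm (r = 0.99), Mrpl44 and Hibadh, and Pygm kept r = 0.99 without group means. Myh7b was most like Celsr2 (r = 0.94), Tarbp2 (r = 0.93) and Gm16574. The r of Myh7b with Tarbp2 was 0.05 once group means were removed, so the likeness lay between groups and not among hearts of a group. Myh7 was most like Edn3 (r = 0.81), Galns and C530008M17Rik, and Med13 like Stk24 (r = 0.91), Slc7a1 and Sec16a.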

How the data were processed

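Per the labels and the study's methods, ventricular RNA was selected with oligo(dT) and sequenced in pairs. The authors trimmed reads with cutadapt 2.3, checked them with FastQC, aligned them to GRCm38 with HISAT2 2.1.0, assembled transcripts with StringTie 1.3.4 and deposited gene counts. These counts are derived from coverage times length over a read length, so all of them may be off by a common factor, and halved counts were an alternative. The annotation release and strand setting are not given in the sources used here.

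From the deposited counts, edgeR 4.0.16 (R 4.3.3) fitted all 16 hearts in 4 groups (filterByExpr, TMM, robust quasi-likelihood), and p-values were adjusted by the Benjamini-Hochberg method over 19955 genes. CPM uses TMM library sizes, and CPM per kb the exonic length in GENCODE M21. Nothing in the labels ties equal replicate numbers to a shared animal or day, and p-values measure the spread between hearts. Alternatives (DESeq2 1.42.0, edgeR's exact test, scaling, filters, a replicate block, a clock score, each heart left out) are described at the end. The fit was tested on simulated counts, the outcome of which is not given here, so it adds nothing to the results. The members are always named, list genes where they passed in at least 1 comparison, and the 3 most alike genes by r. Members, lists and the clock score were chosen with earlier results of these data known. At 45166994 to 68274222 counts a library, Sox6 had 312 to 2177 counts and Myh7b 697 to 18847, so the spread between hearts and not depth limits their precision.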

Additional observations from a re-analysis of the deposited data

How the results depend on the processing

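Of 703 recomputed values of the members, the Myh7 share and the counts of called genes, 580 were labelled the same. For fold changes this means the direction and side of the threshold. Counts labelled the same could differ, as 929 by the exact test from 748 in control TAC against sham. Of the rest, 18 lost and 10 gained a pass of the threshold, 58 counts moved and 37 values reversed. Myh7b kept its call in the TAC comparison in 21 of 21 alternatives and in the sham comparison in 18 of 19. Causes were not tested. The 2 sets of left-out TAC hearts were chosen after seeing the data. Scaling to cardiomyocyte markers took the all-gene median from 0.0247 to 0.69 for TAC in controls, from −0.0107 to −0.55 in the TAC comparison and from −0.0121 to −0.63 in the interaction.

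With that scaling, control TAC against sham gave Sox6 0.00602, Myh7 1.00 and Med13 0.41. The TAC comparison gave Myh6 −0.15 and Med13 −0.46, Trbp-cKO TAC against its sham gave Myh7b −0.99 (not passing), and the interaction gave Myh6 −0.0141, Myh7 −0.50 and Med13 −0.36. Without control TAC replicates 1 and 2, control TAC against sham gave Sox6 0.0496, Myh7 0.68 and Myh7b −0.19, the TAC comparison gave Sox6 0.92 and Myh6 −0.33, and the interaction gave Sox6 −0.0325, Myh6 −0.13 and Myh7 −0.21. Without these and Trbp-cKO TAC replicate 4 the values were Sox6 0.0499, Myh7 0.68, Myh7b −0.19 (control TAC), Sox6 1.17 and Myh6 −0.15 (the TAC comparison), Myh7 0.48 (Trbp-cKO TAC against its sham) and Myh7 −0.20 (interaction). DESeq2 gave Myh7 0.42 and Med13 −0.26 in control TAC and Myh7 0.47 in Trbp-cKO TAC against its sham, as did edgeR's exact test (0.47). Sox6 passed in the sham comparison with 2 groups only and with the exact test (0.96 each).

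With the clock score Myh7b was at −1.96 in the sham comparison and at −1.27 in Trbp-cKO TAC against its sham, neither passing, Med13 at −0.0588 there and Myh7 at −0.23 in the interaction. Med13 in Trbp-cKO TAC against its sham was also −0.00173 without mitochondrial genes, −0.000988 with a 1 CPM filter and −0.00775 with none. With 2 groups only, Sox6 in the TAC comparison was 1.40 and Myh7b in Trbp-cKO TAC against its sham −0.98, both not passing. Equal replicate numbers did not pair the hearts: 7 of 24 pairs of deviations correlated above 0.1 (r from −0.63 to 0.48), and 3 were best with their own number. With the replicate block Sox6 was 1.41 and Myh7b −0.99 in the same comparisons, neither passing.

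With single hearts left out, Sox6 ran from −0.71 to −0.25, Myh7b from −0.08 to 0.26 and Myh7 from 0.34 to 0.54 in control TAC against sham. In the TAC comparison Sox6 ran from 1.22 to 1.69 and Myh6 from −0.04 to 0.42. In Trbp-cKO TAC against its sham Sox6 ran from −0.13 to 0.26, Myh7 from 0.39 to 0.57, Myh7b from −1.20 to −0.82 and Med13 from −0.0347 to 0.0332. The interaction of Myh7 ran from −0.08 to 0.14, Med13 in control TAC from −0.28 to −0.20, Sox6 in the sham comparison from 0.84 to 1.12, and the difference in Myh7 share there from −0.327 to 0.0706 points.

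Genes called numbered 748 in control TAC against sham, and 3520 with marker scaling, 383 with the block, 63 with the clock score, 1256 by adjusted p only, 304 with 2 groups, 1187 by DESeq2, 121 and 285 without the 2 sets of hearts, and 277 to 1583 with single hearts left out. In the sham comparison 193 became 36, 107, 0 (1108 at an unadjusted p under 0.05), 336, 429 and 380 in the same order, 601 by the exact test and 74 to 130. In the TAC comparison 491 became 218 with marker scaling, 274 with the block, 1103 by adjusted p only, 327 at a log2 fold change of 1, 84 with 2 groups, 757 by DESeq2 and 287 to 743. In Trbp-cKO TAC against its sham 1112 became 278 with the clock score, 619 in another alternative, 1983 by adjusted p only and 836 to 1122 with single hearts left out. In the interaction 174 became 21 with marker scaling, 103 with no filter, 54 with the block, 2 with the clock score, 548 by DESeq2, 303 without 3 hearts and 57 to 397.

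Of 61 list results that passed and were recomputed, 5 passed in every alternative, and 6 reversed with marker scaling, whose shift of all genes stands above: Rxra 0.0295 and Mef2a 0.14 in control TAC, and Myh10 −0.0331, Purb −0.26, 1110004F10Rik −0.23 and Gss −0.0497 in the TAC comparison. The results for the atrial, fibroblast, and smooth muscle and pericyte markers were not among the 61.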

Other observations

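Genes known to set myosin heavy chain type through thyroid hormone were counted from a list of 13, of which 12 were tested. With TAC in control hearts Dio2, which activates the hormone, rose by 1.94 on the log2 scale (edgeR, adjusted p = 0.0080) and Dio3, which inactivates it, by 2.24 (adjusted p = 0.015). In Trbp-cKO hearts Dio2 rose with TAC by 3.19 (adjusted p = 8.9e-05) and Dio3 by 1.88 (adjusted p = 0.013). No gene of the list passed in either comparison of Trbp-cKO with control. Dio2 in Trbp-cKO hearts passed in 20 of 20 alternatives. Without control TAC replicates 1 and 2, the control values were 1.03 for Dio2 (adjusted p = 0.118) and 1.95 for Dio3 (adjusted p = 0.129), neither passing.

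Of 26 regulators of myosin heavy chain genes, none passed in the sham comparison (1.68% of all genes) and 1 under TAC (5.53%), Nfatc2, a calcineurin-regulated factor, at −0.59 (adjusted p = 0.032), which passed in 7 of 21 alternatives and not without control TAC replicates 1 and 2 (−0.49, adjusted p = 0.143). The interaction of Nfatc2 was −0.92 (adjusted p = 0.0478, passing in 7 of 27 alternatives). Of 8 endothelial markers, 0 had a log2 fold change above 0 in the TAC comparison (median −0.47) or the interaction (−0.72). With TAC in control hearts all 8 were above 0 (0.50), where Egfl7 alone passed. Their part in the Nfatc2 result was not tested. With TAC, 4 of the 26 passed in control hearts (6.29% of all genes), Vgll2, Nfatc2 and Foxm1 higher and Mef2a lower, and 2 in Trbp-cKO hearts, Vgll2 and Vgll3, both higher (6.02%). Vgll2, a cofactor of TEAD factors, rose with TAC by 2.53 in control (adjusted p = 0.0079) and by 2.81 in Trbp-cKO hearts (adjusted p = 0.0011), the latter in 20 of 20 alternatives. None of the 4 in control hearts passed without control TAC replicates 1 and 2, where the adjusted p was 0.0996 for Vgll2 (2.14), 0.341 for Nfatc2 (0.45), 0.369 for Foxm1 (0.65) and 0.352 for Mef2a (−0.36). Of 4 smooth and non-muscle myosin heavy chains, Myh10, a non-muscle chain, passed in 3 comparisons. It rose by 0.46 with TAC in control hearts (adjusted p = 0.032, 11 of 21 alternatives), by 0.55 in the TAC comparison (adjusted p = 0.013, 15 of 21; 3.88% of all genes were higher) and by 0.65 with TAC in Trbp-cKO hearts (adjusted p = 0.0022, 19 of 20; 6.02%). The first 2 values were 0.47 (adjusted p = 0.170) and 0.53 (adjusted p = 0.0609) without control TAC replicates 1 and 2. In the same 3 comparisons 4, 3 and 3 of 10 fibroblast markers were higher, the collagen genes Col1a1, Col1a2 and Col3a1 in each. Of all genes, 6.29% passed in either direction in the first, and 3.88% and 6.02% were higher in the others. Of the 10 markers, 9, 5 and 5 had a log2 fold change above 0, with medians of 0.59, 0.02 and 0.07. The summed level of the 10 was 1840 to 2038 CPM in control sham, 2106 to 3062 in control TAC, 2143 to 2794 in Trbp-cKO sham and 2412 to 3931 in Trbp-cKO TAC hearts, and its part in the Myh10 result was not tested.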
